A study of Mus musculus with 6 samples.

Results

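The HOX cluster genes were taken here as every region of the deposited tables whose nearest gene bore the name of a Hoxa, Hoxb, Hoxc or Hoxd gene. They numbered 53 of 370756 regions, 37 of them T and 16 of them S, and fell at 27 of the 39 HOX genes of the RefSeq annotation. Primary cardiac fibroblasts of the mouse gave 6 CUT&Tag libraries, an assay in which a transposase is tethered by an antibody and cuts the chromatin around the antibody's target. The study used the assay to ask whether the channel Piezo2 is needed to pass pro-fibrogenic signals on to SRF and TEAD, transcription factors that respond to mechanical cues; TAZ is a partner of TEAD. The labels mark libraries by a T or an S and state no antibody; the T set was taken as TAZ and the S set as SRF, an inference that the tables do not check. A set consisted of 3 libraries, with 1 for NC, 1 for TGF-b (the cytokine that drives fibroblasts towards contractile, collagen-secreting myofibroblasts), and 1 for TGF-b with an siRNA. The siRNA is labelled SiTAZ for T and SiSRF for S, whereas the text of the study describes siRNA against Piezo2, which is mechanosensitive, so its target is left unstated. The series' design text describes Cre-driven Tet3 deletion, a condition that no label of these 6 libraries carries; genotype, strain, sex and age are not labelled, and what all 6 libraries share is the cell type and the tissue, heart. There were no replicates, so differences are between single libraries and no test of a treatment was possible.

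HOX genes encode homeodomain transcription factors that give cells their position along the body axis. They sit in 4 clusters, Hoxa, Hoxb, Hoxc and Hoxd, and the order of the genes along each cluster, numbered as paralog groups from 1 to 13, follows the order in which they are used from head to tail. Polycomb proteins keep the clusters silent where they are not needed, trithorax proteins keep them active, and the MEIS, PBX and PKNOX homeodomain proteins bind DNA together with HOX proteins. Fibroblasts of adult tissues keep a HOX pattern that reflects the part of the body they came from.

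Promoters of genes whose regions lay at or near a transcription start site (TSS) are shown first, to give the sequence context of the signal. RefSeq sequences of GRCm38.p6 matched 22 of the 39 genes, in 24 windows, and the 250 bases before the start are given 5' to 3' on the strand of the gene. These coordinates are of another build than those of the regions, which the study's methods give as GRCm39, so both were compared only by distance from the start of the same transcript. Hoxd13 (chr2:74667975-74668224, plus strand) and Hoxd10 (chr2:74691641-74691890, plus strand) are the promoters of the S set's Hoxd regions. Counted from that start, the S region of Hoxd13 ran from -49 to 154 and the window from -335 to -85, and the S region of Hoxd10 ran from -405 to -216 and the window from -283 to -33. Hoxb1 (chr11:96365508-96365757, plus strand) and Hoxb8 (chr11:96281655-96281904, plus strand) held a T region within the window, at -203 to -56 and at -249 to -179. Hoxa9 (chr6:52227371-52227620, minus strand), with a T region from 50 to 123 bases after the start, is shown for the only match to GGAATG or its complement CATTCC, the core of the sites bound by the TEAD partners of TAZ. That match is in capitals.
Hoxd13: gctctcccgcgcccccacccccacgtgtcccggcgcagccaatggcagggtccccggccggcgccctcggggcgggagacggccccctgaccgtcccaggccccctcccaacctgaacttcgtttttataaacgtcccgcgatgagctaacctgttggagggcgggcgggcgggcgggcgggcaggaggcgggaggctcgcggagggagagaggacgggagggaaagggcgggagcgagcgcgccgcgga
Hoxd10: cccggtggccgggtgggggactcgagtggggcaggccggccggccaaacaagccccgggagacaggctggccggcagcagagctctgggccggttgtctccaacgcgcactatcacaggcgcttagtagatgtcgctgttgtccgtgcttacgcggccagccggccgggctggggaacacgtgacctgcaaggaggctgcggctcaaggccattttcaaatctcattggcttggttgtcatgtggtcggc
Hoxb1: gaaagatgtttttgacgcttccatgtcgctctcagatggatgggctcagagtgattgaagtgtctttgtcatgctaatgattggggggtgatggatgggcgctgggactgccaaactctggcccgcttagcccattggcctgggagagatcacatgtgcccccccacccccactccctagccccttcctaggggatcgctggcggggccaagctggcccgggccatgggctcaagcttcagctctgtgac
Hoxb8: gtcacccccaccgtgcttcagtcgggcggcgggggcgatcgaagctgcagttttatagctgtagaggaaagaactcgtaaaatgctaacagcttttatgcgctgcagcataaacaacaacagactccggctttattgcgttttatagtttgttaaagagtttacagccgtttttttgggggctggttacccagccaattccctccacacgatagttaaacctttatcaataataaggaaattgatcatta
Hoxa9: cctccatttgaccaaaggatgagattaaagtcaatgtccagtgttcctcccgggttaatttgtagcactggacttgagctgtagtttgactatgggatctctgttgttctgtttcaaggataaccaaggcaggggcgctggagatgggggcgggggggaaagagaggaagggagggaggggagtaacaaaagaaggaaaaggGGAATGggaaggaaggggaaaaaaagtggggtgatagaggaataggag
The TEAD letters, searched on both strands, were in 1 of the 24 HOX windows and in 12.6% of the 32851 windows of all promoters. The CArG box, the SRF site, was searched by its consensus on both strands and was in 0 of the 24 HOX windows and in 1.47% of all windows. HOX windows held a median of 12.5 CG dinucleotides against 6 in all windows, and a median G+C of 58.6% against 52.4%; Hoxd13 was at 74.4% with 31 CG and Hoxa9 at 49.6% with 3. These matches are descriptions of the letters, and no match says only that these letters are not in this window.

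By assigned gene, the position of the regions along the clusters differed between the sets. Paralog groups 1 to 3 (8 genes) held 13 T regions and 0 S regions. Groups 4 to 8 (15 genes) held 8 T and 6 S regions, and groups 9 to 13 (16 genes) held 16 T and 10 S regions. The 0 rests on the gene names, since S regions named otherwise also lay at the end of groups 1 to 3. They were at Hotairm1, Hoxaas2 and Gm15050 in Hoxa, at Hoxd3os1 in Hoxd, and without a gene at chr11:96254229-96254447 in Hoxb. The T set had regions at 21 HOX genes and the S set at 13. Both sets had one at Hoxa7, Hoxa10, Hoxb8, Hoxb9, Hoxc4, Hoxc11 and Hoxd13, that is 7 of the 21 T genes and 7 of the 13 S genes. The whole T set holds 292385 regions and the whole S set 78371. No share over all genes is given beside these gene counts, so they are a description only. The S set alone had regions at Hoxa5, Hoxa13, Hoxb7, Hoxc5, Hoxc9 and Hoxd10. The other 14 genes had T regions only, among them Hoxd3 with 5 regions and Hoxb1, which patterns the hindbrain, with 4. No region in either set was assigned to 12 genes: Hoxa2, Hoxa3, Hoxa11, Hoxb2, Hoxb4, Hoxb5, Hoxb13, Hoxc6, Hoxc8, Hoxc10, Hoxd1 and Hoxd4. By cluster, Hoxa held 9 T and 5 S regions, Hoxb 10 and 4, Hoxc 6 and 5, and Hoxd 12 and 2.

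**Figure D1:**
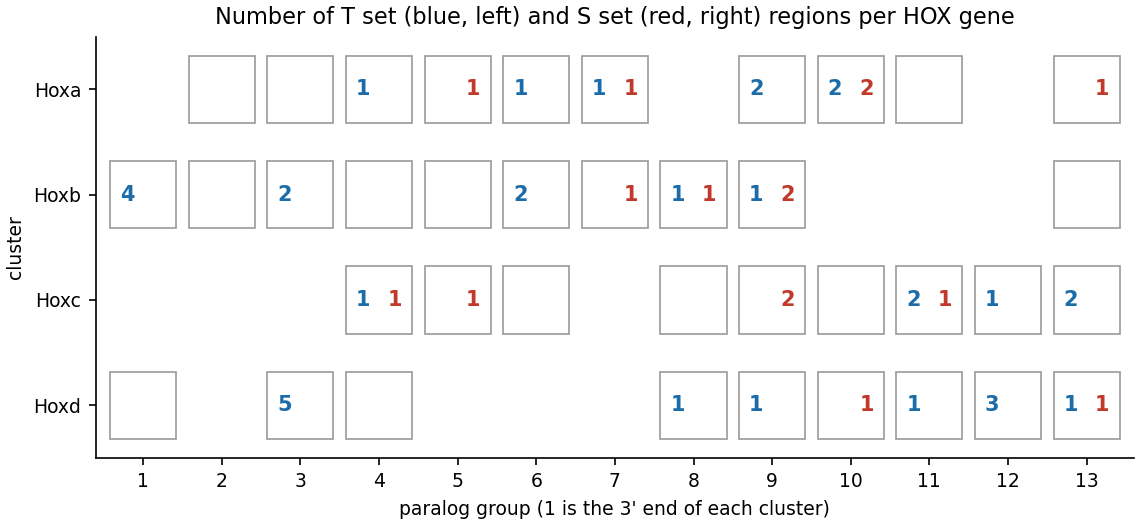
Number of regions per HOX gene, with the paralog group on the horizontal axis and the cluster on the vertical axis; boxes are the 38 genes reported by name, blue numbers on the left the T set and red numbers on the right the S set. Paralog groups 1 to 3 hold 11 T regions and 0 S regions among the genes drawn. Regions inside the clusters that carry another gene's name or none are not drawn, and some S regions of this kind lie at that end.

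Distance to a TSS is in part fixed by the choice of members, since a region far from any gene carries no gene name and could not be a HOX region; the tables name no gene at 40.4% to 48.3% of their regions. The shares are therefore set beside those of the regions that carry a gene name and are a description only. In the tables of TGF-b and NC, 10 of 22 T regions (45.5%) and 7 of 13 S regions (53.8%) had their centre within 1 kb of a TSS, against 17.1% and 19.3% of all named regions. In the tables of siRNA and TGF-b, 9 of 23 T regions (39.1%) and 6 of 13 S regions (46.2%) did so, against 16.2% and 24.5%. HOX genes are short and their clusters compact, which also limits how far a region named for one can lie from a TSS.

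Signal at HOX regions was high in the S set and low in the T set. The unit is the authors' normalized read density, in reads per kb of a 2 kb window around the region, from which whole reads were recovered. In the S table of TGF-b and NC, the 13 HOX regions had a median of 60 reads over both libraries, whereas all regions had 18. Their median percentile by mean log2 density was 98.7, and the lowest of them, at Hoxa5, was at 76.8. In the S table of siRNA and TGF-b, the median was 63 reads against 18, the median percentile 97.7, and the lowest region, at Hoxa13, was at 32.2. In the T set, HOX regions had medians of 12 and 10 reads in the 2 tables, against 14 and 12 for all regions, and median percentiles of 36.0 and 38.5. Of the T regions, 15 of 22 and 16 of 23 had 3 or fewer reads in a library, against 49.3% and 57.9% of all regions. In the S set this held for 1 of 13 and 0 of 13, against 27.5% and 26.8%. Reads were not marked by molecular identifiers, so intervals and the floor of 3 reads cover counting error only.

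In the S set, the TGF-b library had more reads than NC at each of the 13 HOX regions, as at 59.2% of all regions, and its normalized density was higher at 12 of them, as at 43.8% of all regions. The Hoxa5 region (ENSMUSG00000038253, chr6:52182681-52182858, 1202 bp upstream of the TSS of a gene that patterns the lung and the cervical skeleton) had 3, 38 and 22 reads in the NC, TGF-b and siRNA libraries. Density went from 2.44 (NC) to 16.0 (TGF-b), which is a log2 ratio of 2.72 (95% interval 1.48 to 4.70). The log2 ratio of siRNA over TGF-b was -0.73 (-1.50 to -0.00302). NC was at the floor of 3 reads there.

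Hoxc9, which sets the identity of thoracic motor neurons, carried 2 S regions (ENSMUSG00000036139). The first, 529 bp upstream of the TSS at chr15:102884191-102884499, had 21, 61 and 14 reads in the NC, TGF-b and siRNA libraries. The second, 5134 bp downstream at chr15:102890504-102890699 in an exon, had 11, 49 and 19 reads. At both the TGF-b library was the highest. The log2 ratio of TGF-b over NC was 0.97 (0.30 to 1.72) for the first and 1.52 (0.68 to 2.54) for the second. The log2 ratio of siRNA over TGF-b was -2.01 (-2.91 to -1.26) for the first, the lowest among S regions at HOX genes, and -1.29 (-2.09 to -0.58) for the second.

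Hoxb9, a gene of the thoracic region of the axis, had the most read-rich HOX region of the S set (ENSMUSG00000020875, chr11:96163980-96164174, intron, 1728 bp downstream of the TSS), with 23, 73 and 18 reads in the NC, TGF-b and siRNA libraries. Densities were 14.4 (NC) and 30.9 (TGF-b) in their common table, and in that of siRNA and TGF-b they were 36.7 (TGF-b) and 9.57 (siRNA). These gave log2 ratios of 1.10 (0.47 to 1.81) and -1.94 (-2.73 to -1.26). TGF-b was the higher library in both tables. A second Hoxb9 region, 244 bp upstream of the TSS, had 14 reads in NC and 35 in TGF-b (log2 ratio 0.72, -0.10 to 1.66) and was not in the siRNA table. Hoxb7, of the same cluster, had 17, 49 and 23 reads in an intronic region 2247 bp downstream of its TSS, with ratios of 0.94 (0.21 to 1.78) and -1.03 (-1.77 to -0.36).

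Hoxd13, which patterns the digits, had its S region over the first bases of the gene (ENSMUSG00000001819, chr2:74498605-74498808, exon, 52 bp downstream of the TSS; promoter printed above). It held 12, 43 and 13 reads in the NC, TGF-b and siRNA libraries. The log2 ratio of TGF-b over NC was 1.21 (0.39 to 2.20) and that of siRNA over TGF-b was -1.60 (-2.56 to -0.80). Hoxd10, which specifies lumbar motor neurons (promoter printed above), had 23, 52 and 34 reads at 311 bp upstream, with ratios of 0.61 (-0.05 to 1.35) and -0.58 (-1.22 to 0.02). Both of its intervals included 0.

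Hoxa7 (chr6:52198730-52198884, 5' UTR, 27 bp downstream of the TSS) had 18, 50 and 31 reads in the NC, TGF-b and siRNA libraries, with ratios of 0.89 (0.17 to 1.71) and -0.65 (-1.31 to -0.03). Hoxa10, needed in the uterus and the lumbar skeleton, had 20 reads in NC and 52 in TGF-b at 1367 bp upstream (0.80, 0.11 to 1.58). Its other region, 299 bp downstream, had 26 and 34 reads and a ratio of -0.16 (-0.88 to 0.58), the only one of the 13 below 0. Neither Hoxa10 region was in the siRNA table.

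Hoxc4 (intron, 6809 bp upstream) had 13, 39 and 12 reads in NC, TGF-b and siRNA, with ratios of 0.97 (0.15 to 1.93) and -1.57 (-2.57 to -0.73). Hoxc5 (exon, 578 bp downstream) had 14, 33 and 27 reads, with ratios of 0.63 (-0.20 to 1.58) and -0.25 (-0.98 to 0.47). The siRNA over TGF-b interval lay below 0 at Hoxc4 and included 0 at Hoxc5.

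Another 3 S regions were only in the table of siRNA and TGF-b. Hoxc11 (657 bp upstream) had 42 reads in TGF-b and 21 in siRNA, a ratio of -0.93 (-1.71 to -0.22). Hoxb8 (3' UTR, 1914 bp downstream) had 30 and 31 reads, a ratio of 0.08 (-0.64 to 0.80). Hoxa13, needed for digits and the genital tubercle, had 4 and 10 reads 3683 bp downstream of its TSS, a ratio of 1.26 (-0.15 to 3.03). Hoxa13 was the one HOX region of the S set at least 2-fold higher in the siRNA library, and its interval included 0.

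**Figure D2:**
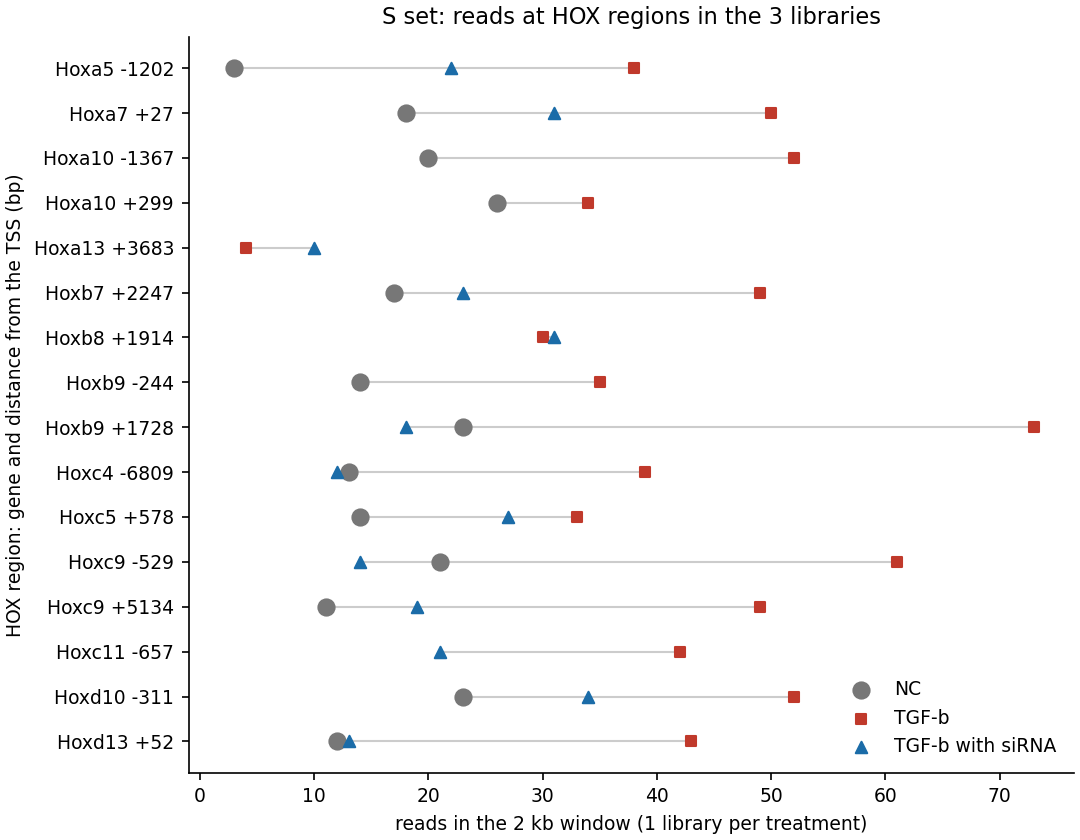
Reads in the 2 kb window (horizontal axis) at each of the 16 HOX regions of the S set (vertical axis, gene and distance from the TSS in bp), 1 point per library; a library without a point was not in a table with that region. TGF-b (red squares) has the most reads at all 10 regions with 3 values, as at 82.6% of all S regions present in both tables. All of the 10 but Hoxa7 were called in TGF-b alone in both tables, which favours this outcome.

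Over the 10 S regions present in both tables, NC had 3 to 23 reads (median 15.5), TGF-b 33 to 73 (median 49) and the siRNA library 12 to 34 (median 20.5). TGF-b had the most reads at all 10, as at 82.6% of the 26931 S regions present in both tables, and the higher density in both tables at all 10, as at 70.5%. All of these 10 but Hoxa7 were called in TGF-b alone in both tables. Presence in both tables thus favoured regions high in TGF-b, and the counts of 10 are a description only. The TGF-b library enters both comparisons, so their opposite signs are not independent of each other. Over all 13 HOX regions of the S table of TGF-b and NC, the median log2 ratio was 0.94 (95% rank interval 0.63 to 1.21), whereas all 52723 regions of that table had a median of -0.20. At least 2-fold higher in TGF-b were 4 of 13 HOX regions, against 17.4% of all regions, and at least 2-fold lower were 0 of 13, against 26.7%. The count of 4 became 9 relative to the table's median and 12 once the authors' rescaling of density along a straight line was undone. Both steps also move the ratios of all regions. Their share past 2-fold on those scales is not given, and 17.4% is not the background of the 9 and the 12. The 95% counting interval lay above 0 at 9 of 13, against 11.5% of all regions, and below 0 at 0 of 13, against 19.2%. Another 5 HOX regions had ratios of 0.80 to 0.97, just under the 2-fold threshold of 1 on the log2 scale.

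In the S table of siRNA and TGF-b, the median of the 13 HOX regions was -0.93 (-1.60 to -0.25) and that of all 52579 regions was -0.21. At least 2-fold lower in the siRNA library were 6 of 13, against 27.8% of all regions, and at least 2-fold higher was 1 of 13, against 15.1%. The interval lay below 0 at 9 of 13, against 21.8%, and above 0 at 0 of 13, against 10.2%. The siRNA library had fewer reads than TGF-b at 11 of 13 HOX regions and at 57.5% of all regions. At Hoxa5 and Hoxa7 the upper bound of the interval lay just below 0.

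**Figure D3:**
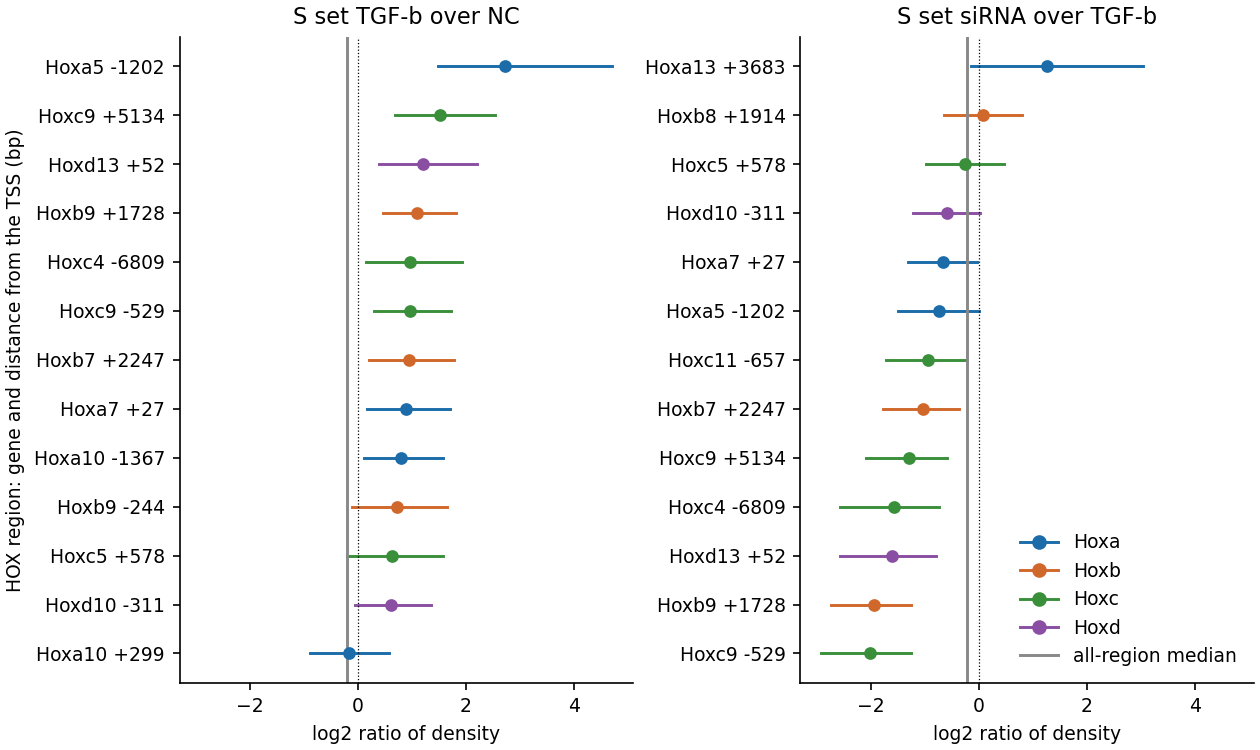
Log2 ratio of normalized read density (horizontal axes) of the S set's HOX regions, TGF-b over NC on the left and siRNA over TGF-b on the right; points are ratios, bars 95% counting intervals and the grey line the median of all regions of the table. The HOX medians of 0.94 and -0.93 lie away from the grey lines at -0.20 and -0.21.

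Because the S regions at HOX genes were read-rich, they were also set beside regions of like signal, a comparison chosen after seeing the data. Regions within the range of mean log2 density of the HOX regions had medians of -0.09 for TGF-b over NC (11930 regions) and -0.17 for siRNA over TGF-b (35272 regions). Those above the median signal of the table had medians of -0.16 and -0.15. The range for siRNA over TGF-b is stretched by the read-poor Hoxa13 region, and that for TGF-b over NC by Hoxa5. Without the lowest HOX region of each table the range held 1307 and 2290 regions, with medians of 0.15 and -0.02, beside 0.91 and -0.98 for the 12 HOX regions. Intervals narrow with reads, so their share was also taken at like signal. In that narrower range the interval lay above 0 at 18.1% of all regions and at 8 of 12 HOX regions for TGF-b over NC, and below 0 at 15.9% and at 9 of 12 for siRNA over TGF-b. Ratios are also given by the library in which the authors had called a region, a class that the reads of the same 2 libraries decide, so these values are a description only. In the table of TGF-b and NC, 9 of 13 HOX regions were called in TGF-b alone, against 46.9% of all regions. Their median was 0.97, against 0.70 for all regions called so. The other 4, the Hoxa7 region, both Hoxa10 regions and the upstream Hoxb9 region, were called in NC alone, as were 50.9% of all regions. Their median was 0.76, against -1.02. In the table of siRNA and TGF-b, 9 were called in TGF-b alone, against 45.3% of all regions, with a median of -1.29 against -1.19. The 4 called in the siRNA library alone, against 50.8% of all regions, had a median of -0.29 against 0.54.

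Median S ratios for TGF-b over NC lay close together over the 4 clusters. The median density in NC was 12.03 for Hoxa, 10.8 for Hoxb, 8.76 for Hoxc and 11.1 for Hoxd, and in TGF-b it was 18.6, 20.8, 18.6 and 20.1. The median log2 ratios were 0.85, 0.94, 0.97 and 0.91 over 4, 3, 4 and 2 regions. For siRNA over TGF-b the medians were -0.65 for Hoxa, -1.03 for Hoxb, -1.29 for Hoxc and -1.09 for Hoxd. By position, paralog groups 4 to 8 and 9 to 13 had medians of 0.94 and 0.89 for TGF-b over NC, and of -0.69 and -1.29 for siRNA over TGF-b. With 5 to 8 regions a group these differences lie within the range of single regions.

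In the T set, read-poor regions gave the widest ratios. The Hoxc11 region 656 bp upstream of the TSS had 0, 14 and 7 reads in the NC, TGF-b and siRNA libraries. With NC set to the floor of 3 reads per library, TGF-b was 4.32-fold higher than NC. The log2 interval of the reads as counted lay above 2.07. The siRNA over TGF-b ratio there was -0.45 (-1.81 to 0.73). Hoxa10 (1542 bp upstream) had 1, 10 and 0 reads and a TGF-b over NC ratio of 2.65 (0.91 to 6.11), or 1.65 with NC at the floor. With the siRNA library at the floor it was 2.02-fold lower than TGF-b, and the interval of the reads as counted lay below -0.94. Hoxb3, a hindbrain gene, had 3, 13 and 0 reads 854 bp upstream and a TGF-b over NC ratio of 1.95 (0.55 to 3.97). Its siRNA library, set to the floor, was 2.57-fold lower than TGF-b, and the interval of the reads as counted lay below -1.31. Hoxb6 (2060 bp upstream) had 1, 11 and 5 reads, with ratios of 2.77 (1.05 to 6.23; 1.77 with NC at the floor) and -0.54 (-2.14 to 0.78). These are the 4 T regions at least 2-fold higher in TGF-b.

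The 9 T regions at least 2-fold lower in TGF-b lay at Hoxa9, Hoxc4, Hoxc11, Hoxd3, Hoxd9, Hoxd12 and Hoxd13. Hoxc4 (3' UTR, 2053 bp upstream of a TSS) had 15 reads in NC and 3 in TGF-b, a ratio of -1.86 (-3.87 to -0.49). The Hoxd12 region 679 bp upstream had 12 and 1 reads (-2.52, -5.99 to -0.82; -1.52 with TGF-b at the floor), and the Hoxa9 region 509 bp downstream had 11 and 2 (-1.84, -4.30 to -0.29). Hoxd9 had 10 and 2 reads 2758 bp downstream (-1.71, -4.17 to -0.13). Of the 9, 6 were in the Hoxd cluster, where 3 were at Hoxd3, and 5 of those 6 had 1 read in TGF-b. With reads of 3 or fewer set to 3, 5 of the 9 stayed past 2-fold, 2 of them in Hoxd (Hoxd9 and Hoxd12). A pair of those Hoxd3 regions, with 8 and 1 reads each, shares most of its window.

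Over the 22 HOX regions of the T table of TGF-b and NC, the median log2 ratio was -0.38 (-1.71 to 0.34) and that of all 170890 regions was -0.65. At least 2-fold higher were 4 of 22, against 17.3% of all regions, and at least 2-fold lower were 9 of 22, against 42.1%. The interval lay above 0 at 4 and below 0 at 6 of 22, against 14.8% and 31.1%. These shares are near those of all regions, and relative to the median of all regions the HOX median was 0.28 higher, that is of the other sign. By cluster the medians were -0.38 for Hoxa (6 regions), 1.19 for Hoxb (4), -1.16 for Hoxc (3) and -1.60 for Hoxd (9). With reads of 3 or fewer set to 3 they were -0.38, 1.10, -1.16 and -0.60. All 4 Hoxb regions were above 0, from 0.18 to 2.77, and 1 of the 9 Hoxd regions was, at Hoxd11 with 0.34, against 33.1% of all regions. Hoxb medians rest on 1 to 13 reads a library. Paralog groups 1 to 3, 4 to 8 and 9 to 13 had medians of -0.31, -0.70 and -1.16 over 9, 4 and 9 regions, and of -0.31, -0.70 and -0.60 once low reads were raised to the floor of 3.

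In the T table of siRNA and TGF-b, the median of the 23 HOX regions was 0.77 (-0.45 to 1.76) and that of all 180118 regions was 0.97. At least 2-fold higher in the siRNA library were 11 of 23, against 49.7% of all regions, and at least 2-fold lower were 3 of 23, against 16.2%. The interval lay above 0 at 8 and below 0 at 2 of 23, against 38.9% and 11.4%. These shares again were near those of all regions. Centred on the median of all regions, 6 were higher and 8 lower and the HOX median was -0.20, that is of the other sign. Hoxb8, used in blood progenitors (promoter printed above), had 0 reads in TGF-b and 9 in the siRNA library 214 bp upstream. With the 0 reads set to 3, the siRNA library was 3.395-fold higher, and the log2 interval of the reads as counted lay above 1.67. Hoxc12 had 2 and 10 reads (2.32, 0.75 to 4.79), Hoxc13, a hair follicle gene, had 1 and 7 at 2542 bp downstream (2.45, 0.61 to 5.89; 1.45 with the 1 read set to 3), and Hoxd3 had 2 and 9 at 739 bp upstream (2.19, 0.58 to 4.66). The denser Hoxc13 region, 1760 bp downstream in an intron, had 6 and 7 reads (0.65, -0.83 to 2.18). At Hoxa9 (87 bp downstream; promoter printed above) and Hoxa10 (2009 bp downstream) there were 0 and 3 reads, both at or under the floor, so no fold is given although both count among the 11. The third region at least 2-fold lower, beside those of Hoxa10 and Hoxb3, was that of Hoxd11 with 7 and 1 reads (-1.55, -5.00 to 0.28). With reads of 3 or fewer set to 3, Hoxd11 was at -0.55, and 8 regions stayed at least 2-fold higher and 2 at least 2-fold lower. By cluster the medians were 1.67 for Hoxa (5 regions), 0.77 for Hoxb (9), 1.49 for Hoxc (4) and 0.29 for Hoxd (5), and with that floor 0.43, 0.77, 1.05 and 0.29. Paralog groups 1 to 3, 4 to 8 and 9 to 13 had medians of 1.11, 0.67 and 1.13 over 8, 5 and 10 regions, and 0.77, 0.67 and 0.43 with the floor.

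For other T regions of high mean density within their clusters, the ratios given in this paragraph ran from -1.16 to 1.67. The interval included 0 at each of these but the last Hoxb3 and Hoxb9 regions. Hoxb1 (130 bp upstream; promoter printed above) had 4, 5 and 2 reads in the NC, TGF-b and siRNA libraries, with ratios of 0.44 (-1.29 to 2.28) and -0.55 (-3.03 to 1.28). Hoxd11 (1438 bp upstream) had 6, 7 and 1 reads and a TGF-b over NC ratio of 0.34 (-1.14 to 1.87), and its siRNA over TGF-b ratio is given above. Hoxd12 had 11 and 8 reads in NC and TGF-b 805 bp downstream (-0.30, -1.62 to 0.93), and 8 and 7 in TGF-b and siRNA 613 bp downstream (0.29, -1.14 to 1.67). The intronic Hoxc11 region 1549 bp downstream, which counts among the 9 lower ones, had 9 and 3 reads in NC and TGF-b (-1.16, -3.20 to 0.35). Hoxa6 had 10 and 4 reads in NC and TGF-b (-0.99, -2.77 to 0.41) and Hoxa7 had 2 and 6 in TGF-b and siRNA (1.67, -0.08 to 4.15). Hoxb3 had a further intronic region, 2046 bp upstream, with 5 and 11 reads in TGF-b and siRNA (1.46, 0.13 to 3.06). The Hoxb9 region 2708 bp downstream, in an intron, had 3 and 8 reads (1.62, 0.07 to 3.66), and Hoxd8 had 5 and 3 reads 1752 bp downstream in its 3' UTR (-0.14, -2.21 to 1.63).

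**Figure D4:**
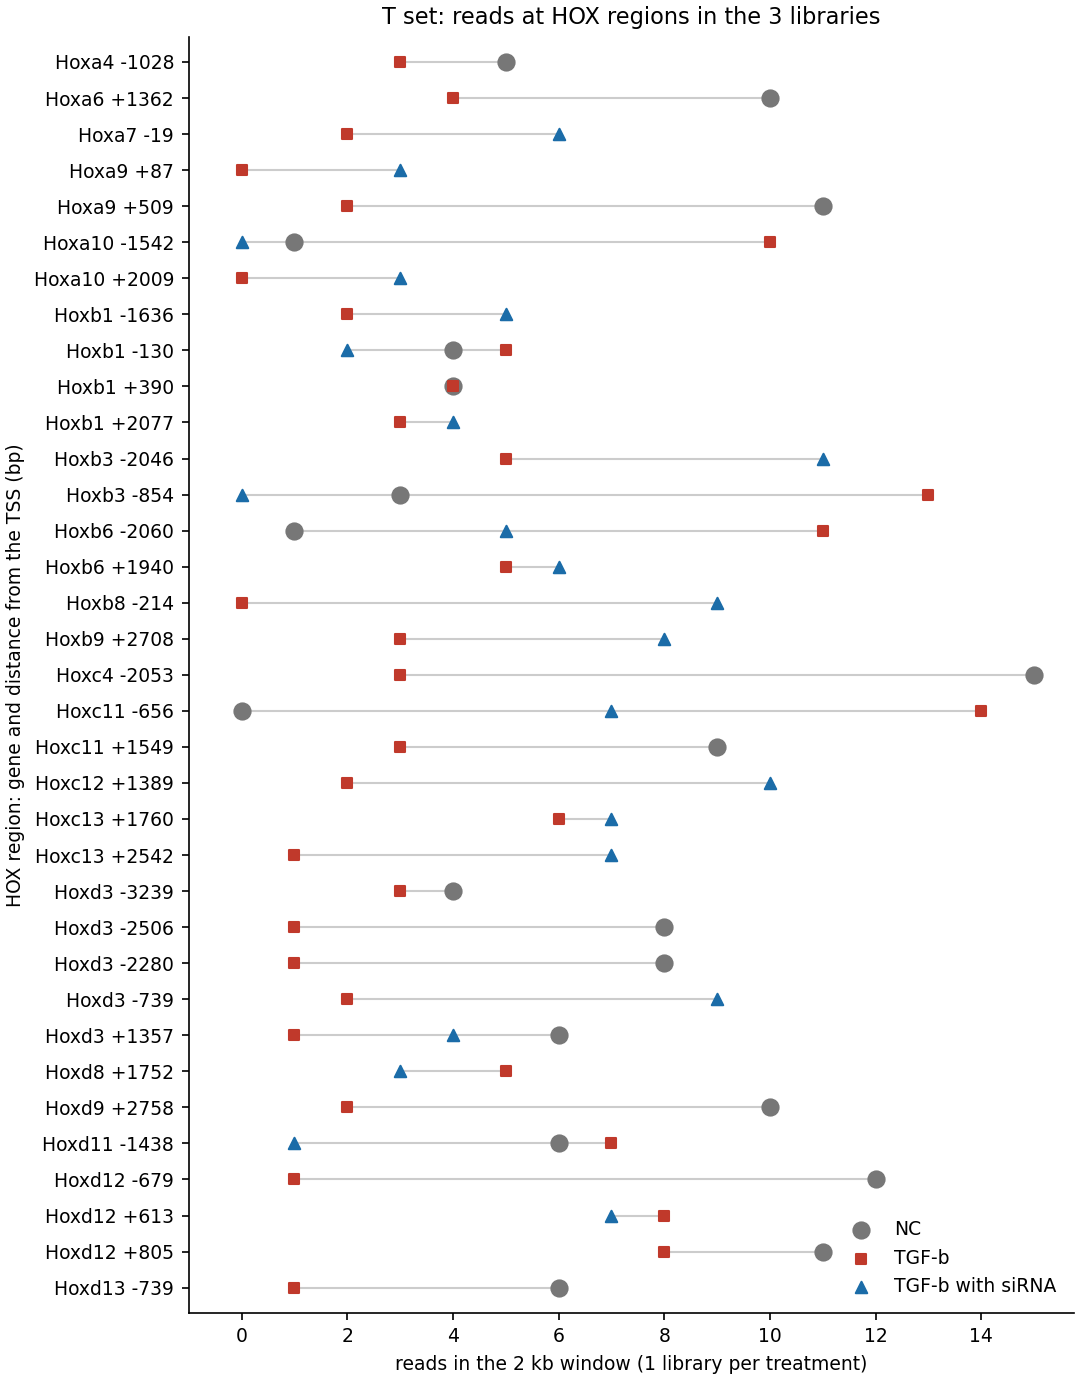
Reads in the 2 kb window (horizontal axis) at 35 of the 37 HOX regions of the T set (vertical axis, gene and distance from the TSS in bp), 1 point per library; a library without a point was not in a table with that region. No point drawn exceeds 15 reads.

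**Figure D5:**
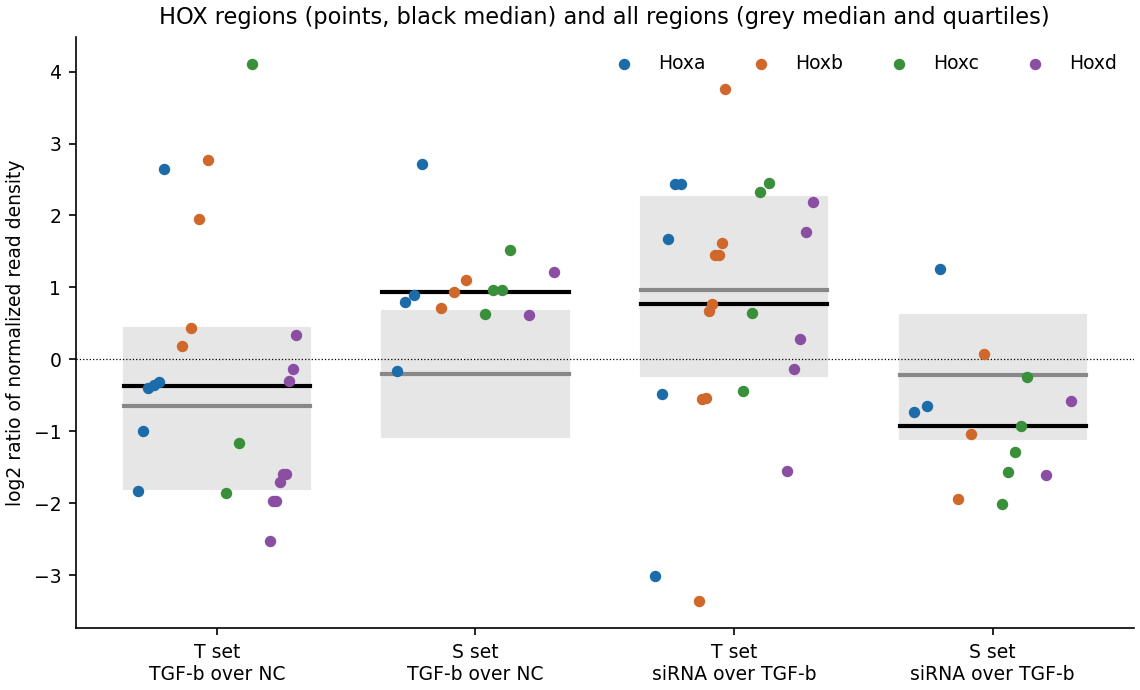
Log2 ratio of normalized read density (vertical axis) of HOX regions in the 4 tables, coloured by cluster; black lines are HOX medians, grey lines and bands the median and quartiles of all regions of the table. The S set medians of 0.94 and -0.93 stand farther from the grey lines than the T set medians of -0.38 and 0.77.

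Of the 16 S regions at HOX genes, 5 (31.2%) lay within 1 kb of a T region and 2 of these overlapped one (12.5%), against 39.4% and 17.3% of all 78371 S regions. They overlapped by 73 bp at Hoxc11 and by 67 bp at Hoxa7, and lay 31 bp apart at Hoxa10, 652 bp at Hoxd13 and 846 bp at Hoxb9. At Hoxc11 (T, chr15:102862158-102862254, and S, chr15:102862169-102862242), TGF-b and siRNA reads were 14 and 7 for T against 42 and 21 for S. At Hoxa7 they were 2 and 6 for T against 50 and 31 for S, with TGF-b the lower library for T and the higher for S. At Hoxa10, NC and TGF-b reads were 1 and 10 for T against 20 and 52 for S.

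Regions inside the clusters that the tables assigned to another gene or to none were also counted. In the S set 9 of them had medians of 0.70 for TGF-b over NC and 9 had -0.96 for siRNA over TGF-b, with reads of 15, 37 and 18 at Gm15050 and 8, 26 and 19 at Hoxaas2, long non-coding genes of the Hoxa cluster. For TGF-b over NC, 7 of the 9 were above 0, against 43.8% of all regions. The others were Hotairm1, also a long non-coding gene of Hoxa, with 10 reads in NC and 11 in TGF-b (-0.45, -1.64 to 0.77), and a Hoxb region at chr11:96202509-96202589 with 21 and 15 (-1.01, -1.98 to -0.10). For siRNA over TGF-b all 9 were below 0, whereas 42.5% of all regions were above 0. The regions in both tables share the TGF-b library. In the T set 10 had a median of -0.998 and 9 a median of 2.15. Hotair, the long non-coding RNA gene of the Hoxc cluster, had 10 and 2 reads at one T region and 9 and 1 at another, in NC and TGF-b.

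Genes that act with or upon HOX genes were counted in the same tables, for the S set against 17.4% of all regions higher and 26.7% lower for TGF-b over NC, and 15.1% higher and 27.8% lower for siRNA over TGF-b. HOX cofactors (MEIS, PBX and PKNOX genes) had 20 regions with a median of -0.35 for TGF-b over NC and 15 with -0.35 for siRNA over TGF-b. Past 2-fold, 3 were higher and 8 lower in the first and 1 higher and 5 lower in the second. Polycomb genes had 9 regions with a median of -1.60 and 11 with -0.09, with 3 higher and 5 lower and then 2 and 2. Trithorax genes had 3 and 2 regions, too few for a median to be read, with 2 higher and 1 lower and then 0 and 1. Upstream regulators (CDX and retinoic acid pathway genes and Gdf11; the list also held Mnx1, a homeobox gene of motor neurons and the pancreas not known for acting on HOX clusters) had 17 and 12 regions with medians of -0.33 and -0.90, with 0 higher and 3 lower and then 0 and 6. The other homeobox clusters (DLX, EVX, GSX and Pdx1) had 7 and 7 regions with medians of 0.31 and -0.61, with 2 higher and 0 lower and then 0 and 3. These last medians had the signs of the HOX medians, and the upstream regulators' -0.90 for siRNA over TGF-b was near the HOX value of -0.93. The lists hold few S regions.

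In the T set the same lists had 58, 32, 17, 52 and 14 regions for TGF-b over NC, with medians of -0.50 for cofactors, -0.58 for polycomb, 0.29 for trithorax, -0.80 for upstream regulators and -1.02 for the other homeobox clusters. Higher and lower past 2-fold were 6 and 24 for cofactors, 8 and 12 for polycomb, 5 and 6 for trithorax, 9 and 22 for upstream regulators, and 2 and 7 for the other clusters. Of all regions, 17.3% were higher and 42.1% lower. For siRNA over TGF-b there were 78, 42, 16, 46 and 13 regions in the same order, with medians of 0.90, 1.11, 0.56, 1.62 and 0.46 and 38 higher and 13 lower, 24 and 6, 7 and 4, 27 and 8, and 3 and 1, against 49.7% and 16.2% of all regions.

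The assay measures no transcripts, so the labelled cell type could not be checked by expression. Regions in the T table of TGF-b and NC lay at 7 of 8 cardiac fibroblast genes, 5 of 5 cardiomyocyte, 4 of 4 endothelial and 2 of 3 macrophage genes, and those of the S table at 5 of 8, 3 of 5, 3 of 4 and 2 of 3. For siRNA over TGF-b these were 7, 4, 4 and 2 genes with T regions and 4, 3, 3 and 2 with S regions. The S medians for TGF-b over NC were -0.45, -0.57, 0.01 and -0.00272 for fibroblast, cardiomyocyte, endothelial and macrophage genes. These rested on 7, 19, 6 and 4 regions. For siRNA over TGF-b the medians were 1.34, -0.34, 0.07 and -0.61, over 8, 22, 6 and 4 regions. Most of these lists hold few S regions. The part of these genes in the HOX values was not tested.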

How the data were processed

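CUT&Tag was performed on primary mouse cardiac fibroblasts, 6 libraries, 1 per set and treatment. According to the methods of the study, the authors used Bowtie2 for alignment (GRCm39) and a caller spelled Masc2 for peaks; the submitters' processing notes name BWA 0.7.12 and mm10. Coordinates were not those of GRCm38 and are given as in the files. The deposited signal, a normalized read density, has the form of reads with 1 added, divided by the window, and the authors then rescaled it along a straight line against mean log2 density. Each of the 4 tables compares 2 libraries over merged peaks; tables were normalized separately, so ratios were taken within a table. Undoing the line gave whole reads (tolerance 0.1) in 99.96% to 99.99% of regions, checked on simulated data. Total library depth is not given in the sources used here.

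HOX regions were found by gene symbol. The log2 ratio is the second over the first density, as deposited. Intervals are Wilson 95% intervals of the share of reads, for counting error only; medians have rank intervals. Reads of 3 or fewer were the floor. A fold of 2 was the threshold, with 1.5 and 4 as alternatives beside centring, dropping the line, the floor, signal, promoter, per-gene, window and cluster filters. Every HOX gene with a region was counted; named with values were the 3 genes per set and cluster with the highest mean density and up to 10 regions per table past 2-fold with at least 20 reads, and further regions were named after their values were seen. The members and lists were chosen with earlier results of these data known. Python 3.11.15, pandas 2.3.3, numpy 2.4.6 and scipy 1.17.1 were used. The values of 1 HOX gene are not reported here; its regions remain in the counts and medians.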

Additional observations from a re-analysis of the deposited data

Results flagged for a closer look

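The sign of the median log2 ratio of HOX regions differed between the sets under both contrasts, and this difference was not tested. For TGF-b over NC the median was -0.3762 in the T set (22 regions) and 0.9381 in the S set (13 regions). For siRNA over TGF-b it was 0.7687 in the T set (23 regions) and -0.9322 in the S set (13 regions). Relative to the median of all regions of each table, the T and S medians were 0.2759 and 1.135 for TGF-b over NC and -0.2020 and -0.7206 for siRNA over TGF-b, so on that scale the signs did not differ. The regions of the sets are different ones, and within each set both contrasts share the TGF-b library.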

How the results depend on the processing

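Among the values under alternatives, 77 stayed within tolerance (a median inside the rank interval of the reported one, a count within 1.5 times), 33 moved and 2 changed sign. Centring on the median of all regions turned the T set medians to 0.2759 for TGF-b over NC and -0.2020 for siRNA over TGF-b. The S set median for TGF-b over NC was 1.4740 without the authors' line; the S median for siRNA over TGF-b left its interval under no alternative tried. The T interval for siRNA over TGF-b is wide, and its median of 0.7687 ran from 0.2864 within 1 kb of a TSS and 0.3219 without the authors' line to 1.451 over every region inside a cluster.

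S regions at least 2-fold higher in TGF-b (4 of 13) became 9 with centring, 12 without the authors' line, 12 at 1.5-fold, 1 at 4-fold, 7 of 22 over every region inside a cluster and 1 of 7 within 1 kb of a TSS; those lower (0) became 1 over every region inside a cluster. S regions lower in the siRNA library (6) became 10 over every region inside a cluster, 2 within 1 kb of a TSS and 1 at 4-fold; those higher (1) became 0 above the median signal, within 1 kb of a TSS and at 4-fold.

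T regions higher in TGF-b (4) became 1 above the median signal and 2 within 1 kb of a TSS. Those lower (9) became 5 with 1 region per gene, 14 over every region inside a cluster, 5 with reads of 3 or fewer set to 3, 1 above the median signal, 3 within 1 kb and 1 at 4-fold. T regions higher in the siRNA library (11) became 7 with 1 region per gene, 6 with centring, 17 over every region inside a cluster, 3 above the median signal, 4 within 1 kb and 6 at 4-fold. Those lower (3) became 8 with centring, 5 over every region inside a cluster, 0 above the median signal, 1 within 1 kb and 5 without the authors' line. Filters that keep fewer regions lower a count by construction. For the other alternatives the cause was not tested. Shares of all regions under each alternative are not given, so these changed counts stand beside no background.

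No paired analysis was possible because each group has 1 library. With most T regions under 15 reads a library, differences at single T regions are limited by depth.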
